A study of Mus musculus with 3 samples.

Results

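The cytosolic ribosomal protein genes were taken from chromatin-bound RNA of mouse macrophages and described by ribosomal subunit. Members had a symbol that starts with Rpl or Rps and a number, or were Rplp0 to Rplp2 or Rpsa, and had at least 1 annotated protein-coding transcript. The rule found 89 symbols among 55536 genes, of which 83 had a coding transcript and became members, 51 of the large subunit and 32 of the small subunit. The 6 others (Rps12l1, Rps3a3, Rpl6l, Rps4l, Rpl32l and Rps3a2) had none. The rule misses ribosomal components with other names, such as Fau at 13.7 ± 2.76 TPM and Rack1 at 23.8 ± 4.65 TPM (SD, n = 3). TPM is a transcript level scaled to length and to the total of the library.

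The samples were primary bone-marrow-derived macrophages of the strain C57BL/6J, treated for 60 min with 100 ng/ml Lipid A, the part of bacterial lipopolysaccharide that Toll-like receptor 4 recognises. All 3 libraries were ribosomal-RNA-depleted total RNA of the chromatin fraction, so there was 1 group and no untreated or cytoplasmic sample among those analysed here. Replicates 1, 2 and 3 started from 1 µg, 250 ng and 500 ng of RNA. The labels number them as biological replicates but give them 1 donor entry, with age and sex not collected, so p-values measure only the spread between these 3 samples, which may be partly technical. In bulk RNA, fewer cells with a transcript and less of it per cell cannot be told apart. Of 12 macrophage markers, 11 reached 1 TPM in every library; none of the T cell, B cell, neutrophil, erythroid or fibroblast markers did, and 2 of 5 endothelial markers did (Vwf, 45.6 TPM, and Kdr, 1.95 TPM).

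A eukaryotic ribosome joins a large subunit, which forms peptide bonds, and a small subunit, which decodes the mRNA. Both hold 1 copy of most of their proteins, yet each protein is encoded by its own gene, and the genes are dispersed over the genome. The genes are short, many carry small nucleolar RNAs (snoRNAs) in their introns, and most have processed pseudogenes, which are reverse-transcribed copies. In the cytoplasm their mRNAs are among the most abundant of a cell. RNA on chromatin is made up largely of nascent and newly made transcripts, many of them not yet fully spliced.

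The gene tables held 13318395, 15352661 and 15812581 expected counts in replicates 1, 2 and 3. The members took 12905, 17792 and 14480 of these, which is 0.0969%, 0.116% and 0.0916% of gene counts. The 95% Wilson intervals were 0.0952% to 0.0986% in replicate 1, 0.114% to 0.118% in replicate 2 and 0.0901% to 0.0931% in replicate 3, and they cover counting error only. Large-subunit genes held 0.064% ± 0.00833 and small-subunit genes 0.0374% ± 0.00445 of gene counts (SD, n = 3). The 68 translation factor genes together held 0.374% ± 0.0193. The median member had 115, 128 and 129 counts in the 3 libraries, and 9, 5 and 10 members had under 20. A count of 0 allows up to 3 counts, which is 0.225, 0.195 and 0.19 CPM (counts scaled to the library total).

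Nearly every ribosomal protein gene was present on chromatin at a moderate level. In all, 80 of 83 members (96.4%) reached 1 TPM in all 3 libraries, 48 of 51 of the large and 32 of 32 of the small subunit, against 35.9% of the 21901 genes with a coding transcript. Mean levels lay between 1 and 10 TPM for 27 members, between 10 and 30 TPM for 43 and above 30 TPM for 10. The members' median log2(TPM + 1) was 3.56, 4.02 and 3.8 in replicates 1, 2 and 3, or 3.79 ± 0.23. It was 3.09 ± 0.21 for translation factors, of which 51 of 68 reached 1 TPM throughout. It was 2.59 ± 0.24 for 84 ribosome assembly factors, which process rRNA and build the subunits, and 68 of these reached 1 TPM. The 78 mitochondrial ribosomal protein genes, which serve the separate ribosome of that organelle, had 1.47 ± 0.26, and 45 of them reached 1 TPM. In each library the members' median lay above those of these 3 lists on this scale. Among genes at 1 TPM or more in all libraries the gap to translation factors was smaller, with 3.83 for members and 3.66 for translation factors. Assembly factors then had 2.83 and mitochondrial ribosomal proteins 1.97. On the scale of log2(CPM + 1), without division by length, the order was another. The members' median of 3.23 ± 0.04 lay below translation factors at 3.52 ± 0.04 and assembly factors at 3.41 ± 0.07. Mitochondrial ribosomal proteins had 1.59 ± 0.14. The 15 RNA polymerase I genes, which include the enzyme that transcribes ribosomal RNA, had a median log2(TPM + 1) of 1.98 ± 0.34, and 12 of them reached 1 TPM. The 20 genes that control ribosomal protein mRNAs had 3.57 ± 0.26, and 17 reached 1 TPM. Among these were Pabpc1, the poly(A)-binding protein, at 194 ± 28.1 TPM, and Larp1, which binds the mRNA start of ribosomal protein genes, at 36.6 ± 7.75 TPM; Eif4ebp1, a translation repressor, was near the bottom at 0.583 ± 0.085 TPM. All coding genes had a median of 0.3 ± 0.07, and those at 1 TPM or more in all libraries had 3.19.

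**Figure D1:**
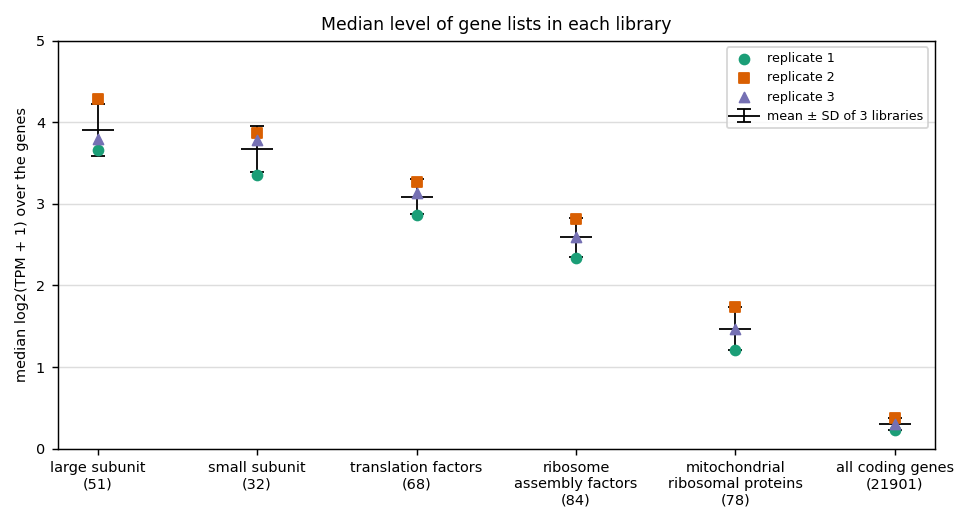
Median log2(TPM + 1) of each gene list (vertical axis) in each of the 3 libraries, with the mean and SD of the 3 medians in black and the number of genes under each name. The large and small subunits, at 3.91 and 3.67, lie above translation factors at 3.09, ribosome assembly factors at 2.59 and mitochondrial ribosomal proteins at 1.47. On the log2(CPM + 1) scale, not plotted, the subunits had 3.18 and 3.2, below translation factors at 3.52 and assembly factors at 3.41.

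The subunits had similar levels. The median log2(TPM + 1) was 3.66, 4.28 and 3.8 for the large subunit in replicates 1, 2 and 3, against 3.35, 3.87 and 3.78 for the small subunit. The difference, large minus small, was 0.31, 0.41 and 0.02, with a mean of 0.25 ± 0.2 (SD, n = 3). It was above 0 in each library but nearly absent in replicate 3, and it was -0.02 ± 0.15 on the scale of log2(CPM + 1), which does not divide by length. In the kallisto-type table described below it was 0.2 ± 0.05. The spread inside a subunit was far wider than the gap between them, as the plot of levels by gene shows.

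A pair of large-subunit genes stood at the top by TPM in the gene table. Rpl23 (ENSMUSG00000071415, mm10 chr11:97777527-97782437, minus strand), a protein of the subunit's interface side, had 60.1, 82.7 and 85.2 TPM in replicates 1, 2 and 3. Rpl10 (ENSMUSG00000008682, chrX:74270812-74273135, plus strand), added last in the cytoplasm next to the peptidyl transferase centre, had 51.9, 87.0 and 59.5 TPM. Both exceeded every other member by TPM in each library of this table. By counts Rpl9, with 517, 855 and 723, exceeded both in each library. In the kallisto-type table described below Rpl10, at a mean of 54.4 TPM, lay under Rpl36, Rpl23, Rpl24 and Rps19, among others. Rpl5, which with Rpl11 and the 5S rRNA forms a particle that also binds the p53 regulator Mdm2, had 33.8, 48.6 and 38.9 TPM. Its partner Rpl11 had 18.7, 20.7 and 26.4 TPM, below Rpl5 in each library. In the kallisto-type table described below, Rpl11 had 37.0, 35.4 and 40.8 TPM, against 40.2, 48.7 and 38.6 TPM for Rpl5. There Rpl11 lay above Rpl5 in replicate 3. In the gene table, Rpl36 had 36.3 TPM, Rpl27a 34.4 ± 6.69 TPM and Rpl9 31.5 ± 7.73 TPM (mean ± SD, n = 3). They completed the 6 highest of the large subunit by TPM, and the libraries of Rpl36 are given below.

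In the small subunit the top was flatter. Rps12 had 23.9, 41.5 and 27.6 TPM, Rps2, at the entry of the mRNA channel, had 21.7, 35.9 and 32.7 TPM, and Rps9 had 25.7, 32.9 and 29.7 TPM. Their ranges overlap, so no order among them holds beyond the spread between libraries. In the kallisto-type table described below the top was another, with Rps19 at 63.5, Rps7 at 55.1 and Rps14 at 50.1 TPM, against 26.1 TPM for Rps12 and 28.9 TPM for Rps2. Rps19, a gene mutated in Diamond-Blackfan anaemia, followed at 27.1 ± 8.4 TPM, then Rps14, of the platform, at 24.0 ± 5.34 TPM and Rps27a, made as a fusion with ubiquitin, at 23.2 ± 5.29 TPM.

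Genes whose products sit side by side in the ribosome had unlike levels. Around the peptidyl transferase centre and core, mean levels ran from 9.25 TPM for Rpl8 to 66.1 TPM for Rpl10, with Rpl3 at 24.7 and Rpl4 at 30.3 TPM. The 4 genes of the stalk, which recruits translation factors, ran from 7.18 TPM for Rplp1 to 20.5 TPM for Rpl12, with Rplp0 at 15.7 and Rplp2 at 11.6 TPM. The 6 genes at the exit of the peptide tunnel ran from 5.32 TPM for Rpl35 to 20.7 TPM for Rpl19. In the small subunit, Rps3 at the mRNA entry had 10.9 ± 2.16 TPM, against 30.1 ± 7.42 TPM for its neighbour Rps2. Without division by length this order was reversed in each library. Rps3 had 27.5, 33.7 and 26.9 CPM, against 16.2, 21.1 and 18.6 CPM for Rps2. The decoding-site genes Rps15 and Rps23 had 5.41 ± 2.44 and 7.51 ± 1.33 TPM. These role groups were drawn up after the values had been seen. Rpl13a, known for a role outside the ribosome in silencing inflammatory mRNAs, had 15.1, 17.3 and 14.1 TPM, near the middle of the members.

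**Figure D2:**
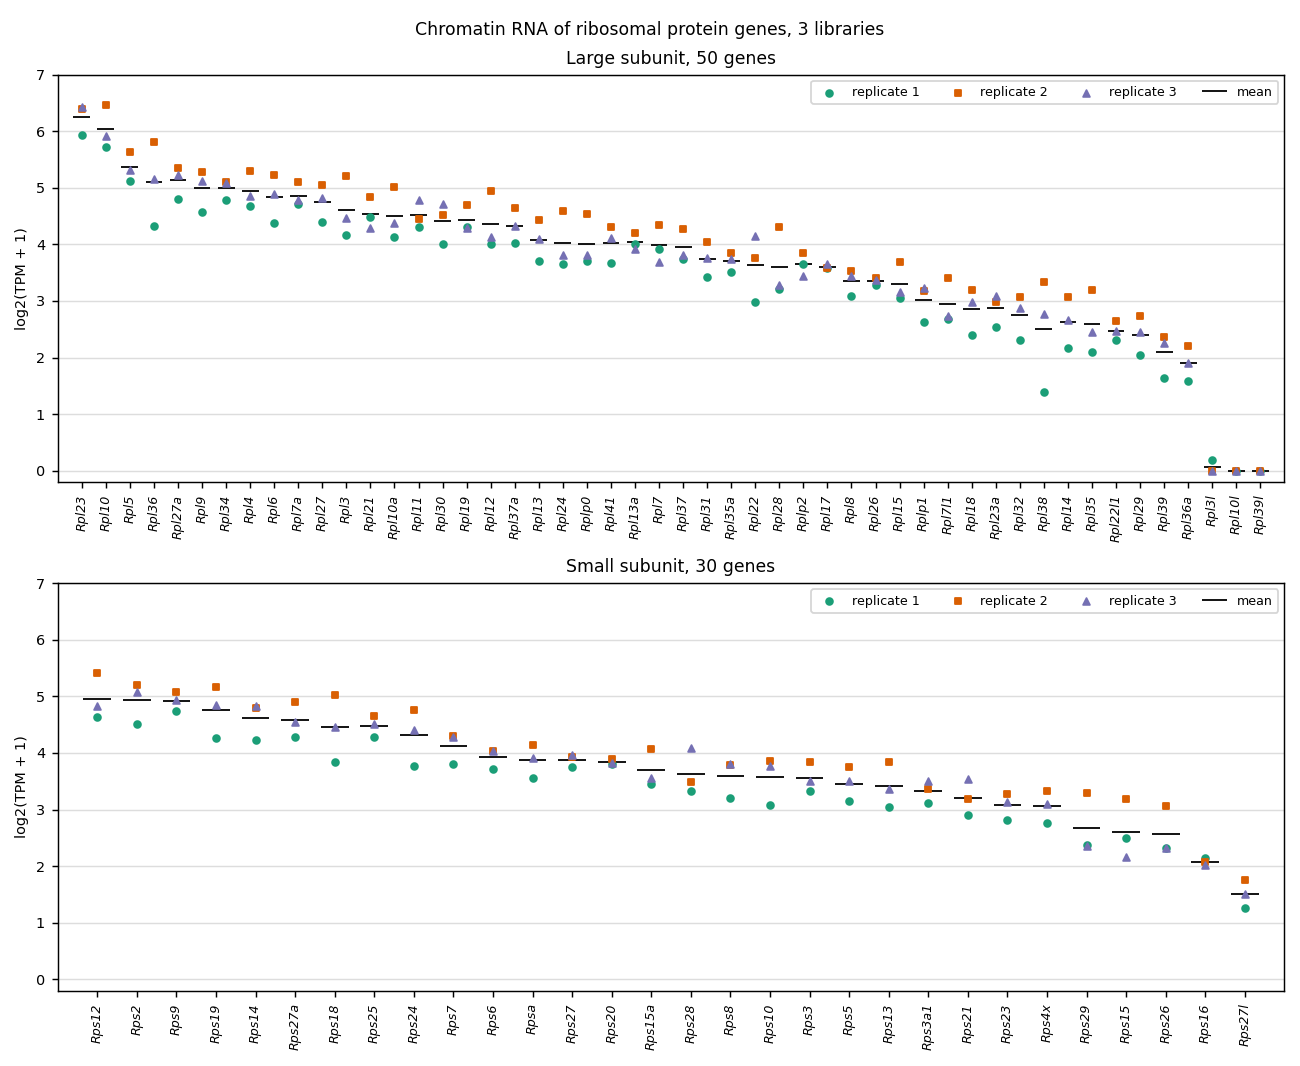
Log2(TPM + 1) of 80 of the 83 genes (vertical axis) in replicates 1, 2 and 3, with the large subunit above and the small subunit below, each ordered by mean TPM; the black line is the mean of the log2 values. Replicate 2 (squares) is the highest in 62 of the 77 plotted genes at 1 TPM or more, and 3 paralogs lie at or near 0.

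The lowest members included tissue-restricted paralogs. Rpl10l, a testis-restricted copy of Rpl10, and Rpl39l, a copy of Rpl39 found mainly in male germ cells, had no count in any library. Rpl3l, a copy of Rpl3 known from heart and skeletal muscle, had 1 count in replicate 1 and none in the others, against 382, 707 and 478 counts for Rpl3. Its level of 1 count is below the limit that a count of 0 allows. The other 3 paralogs were present below their parent genes in each library. Rps27l, a p53 target gene, had 1.39, 2.36 and 1.86 TPM, against 12.5, 14.2 and 14.6 TPM for Rps27, and the log2(TPM + 1) difference was -2.38 ± 0.17. Those values rest on 8, 10 and 9 counts. Rpl22l1 had 3.97, 5.22 and 4.54 TPM, against 6.86, 12.5 and 16.7 TPM for Rpl22, with a difference of -1.15 ± 0.51. Rpl7l1 averaged 6.88 ± 2.38 TPM, against 15.1 ± 3.81 TPM for Rpl7, with a difference of -1.05 ± 0.17 (SD, n = 3). Apart from these copies, the lowest of the large subunit were Rpl36a at 2.78 ± 0.822, Rpl39 at 3.36 ± 1.08 and Rpl29 at 4.39 ± 1.26 TPM. Among the lowest of the small subunit after Rps27l were Rps16 at 3.21 ± 0.176, Rps26 at 5.11 ± 1.94, Rps15 at 5.41 ± 2.44 and Rps29 at 5.7 ± 2.7 TPM.

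The members moved together between libraries. Replicate 2 had the highest TPM in 64 of 80 members (80.0%), 41 of 48 of the large and 23 of 32 of the small subunit, against 61.5% of the detected coding genes. The share was close in ribosome assembly factors, with 52 of 68 (76.5%). It was 62.7% in translation factors and 57.8% in mitochondrial ribosomal proteins. The median deviation from a gene's own mean log2(TPM + 1) was -0.31, 0.28 and 0.02 in replicates 1, 2 and 3 for members, against -0.21, 0.16 and 0.05 for detected coding genes. For assembly factors the deviation was -0.27, 0.22 and 0.02. After TMM scaling, which sets the libraries to a common centre, the members' medians were 0.01, 0.09 and -0.09, and replicate 2 was highest in 47 of 78 members kept (60.3%), against 39.8% of all 12505 genes kept. Replicate 2 started from the least RNA, and the part of that in the difference was not tested. The coefficient of biological variation over all genes was 0.181 with 3 libraries and 0.125 without replicate 2. The members' median coefficient was 0.169, against 0.181 for the 9457 genes whose abundance lay between the lowest and the highest member. That range takes in most of the 12505 genes kept, so the genes were not matched to members in abundance. Among the widest members with at least 20 counts were Rpl36 with 19.1, 55.0 and 34.8 TPM and Rpl28 with 8.29, 18.8 and 8.72 TPM. Both were highest in replicate 2. Rps18 with 13.4, 31.7 and 21.1 TPM shared that order, whereas Rpl22 with 6.86, 12.5 and 16.7 TPM was highest in replicate 3.

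Ribosomal protein mRNAs typically begin with a C followed by an unbroken run of pyrimidines (C or T in the DNA), the terminal oligopyrimidine tract that lets Larp1 and mTOR control their translation. Start regions of 63 of the 83 members were found in RefSeq (build GRCm38.p6), and where a gene had several starts, the one with the longest run was used, for members and all other genes alike. A run of at least 5 pyrimidines that starts with C within 3 bases of the annotated start was found in 25 of 63 members (39.7%), 15 of 39 of the large and 10 of 24 of the small subunit. It was found in 13.4% of 16519 coding genes and 13.0% of 69 mitochondrial ribosomal protein genes. The letters CTTTC, searched on the transcribed strand alone from 3 bases before to 12 bases after the start and often part of such a run, were present in 11 of 63 members (17.5%), against 1.75% of all coding genes. A match describes letters only and is not a mapped start in these cells.

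The 4 members shown first have such a run. Then come the 2 highest members of the gene table by TPM and 2 paralogs with at most 1 count. The windows run from 30 bases before to 20 after the annotated start, so that the start regions can be set beside the levels. Capitals mark the longest run of C or T that begins with C within 3 bases of the start, and Rpl10 has none. The windows are chr7:109519165-109519214 on the plus strand for Rpl27a, chr11:114668550-114668599 on the plus strand for Rpl38, chr3:90213629-90213678 on the minus strand for Rps27 and chr17:33955646-33955695 on the minus strand for Rps18. They are chr11:97782420-97782469 on the minus strand for Rpl23, chrX:74270786-74270835 on the plus strand for Rpl10, chr17:24727796-24727845 on the plus strand for Rpl3l and chr12:66284382-66284431 on the minus strand for Rpl10l.
Rpl27a: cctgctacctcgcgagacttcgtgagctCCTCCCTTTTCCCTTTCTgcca
Rpl38: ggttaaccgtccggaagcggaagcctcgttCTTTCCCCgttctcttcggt
Rps27: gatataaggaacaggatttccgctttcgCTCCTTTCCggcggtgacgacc
Rps18: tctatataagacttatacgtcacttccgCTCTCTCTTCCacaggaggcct
Rpl23: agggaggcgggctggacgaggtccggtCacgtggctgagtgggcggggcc
Rpl10: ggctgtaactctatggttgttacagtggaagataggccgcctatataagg
Rpl3l: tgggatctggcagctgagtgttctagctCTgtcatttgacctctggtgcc
Rpl10l: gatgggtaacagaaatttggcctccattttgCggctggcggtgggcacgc

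The runs are 18, 8, 9 and 11 bases long in Rpl27a, Rpl38, Rps27 and Rps18, whose mean levels were 34.4, 5.5, 13.8 and 22.1 TPM. Rpl23 and Rpl10, the highest members in the gene table by TPM, have no run of 5 or more in this window.

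On chromatin, most members had the larger part of their TPM in transcripts other than the coding mRNA. The annotation sorts each gene's transcripts into classes: protein-coding, retained-intron (spliced RNA that keeps an intron), processed transcript (without a reading frame) and nonsense-mediated decay. Summed over members, retained-intron transcripts held 50.3% ± 1.54 of their TPM, protein-coding ones 33.5% ± 0.684, processed transcripts 14.8% ± 0.849 and nonsense-mediated decay ones 1.32% ± 0.134. Over all genes with a coding transcript the shares were 39.3% ± 1.65, 48.2% ± 1.49, 8.89% ± 0.213 and 3.58% ± 0.218 (SD, n = 3). The subunits were close, with 48.7% ± 2.25 retained-intron TPM in the large and 53.5% ± 0.296 in the small subunit. Of the 72 members detected in all libraries that have transcripts of at least 2 classes, coding transcripts held under 50% of the TPM in all 3 libraries in 50 (69.4%), against 44.6% of 6760 such genes. They held over 50% in all 3 in 10 (13.9%), against 36.8% of such genes.

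The test compared both classes within the same libraries: log2 of retained-intron over coding TPM, with 0.5 TPM added to each, was set against 0 with limma over 5601 genes. Of the 64 members with both classes, retained-intron transcripts were higher in 40 (62.5%), 22 of 36 of the large and 18 of 28 of the small subunit, against 35.5% of all genes tested (limma, Benjamini-Hochberg adjusted p under 0.05). Coding transcripts were higher in 7 (10.9%), 5 of the large and 2 of the small subunit, against 31.7% of all genes, and 17 members passed neither way. These calls are of TPM, which divides by transcript length. The median retained-intron share of the 64 members was 62.9% by counts and 62.8% by TPM. Some genes called for retained-intron transcripts nevertheless had more counts in coding ones, such as Rps20 (84.3% coding), Rpl28 (60.7%) and Rpsa (56.7%). Median log2 ratios were 1.08 in members, 1.2 in the large and 0.87 in the small subunit, against 0.08 in all genes. The order of the subunits turned in other settings: in the kallisto-type table described below, the medians were 0.3 in the large and 0.98 in the small subunit, against 0.3 in all genes, and with TPM averaged over the annotated transcripts of a class they were 0.76 and 1.0, against 0.38. The other 19 members have no retained-intron transcript in the annotation.

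**Figure D3:**
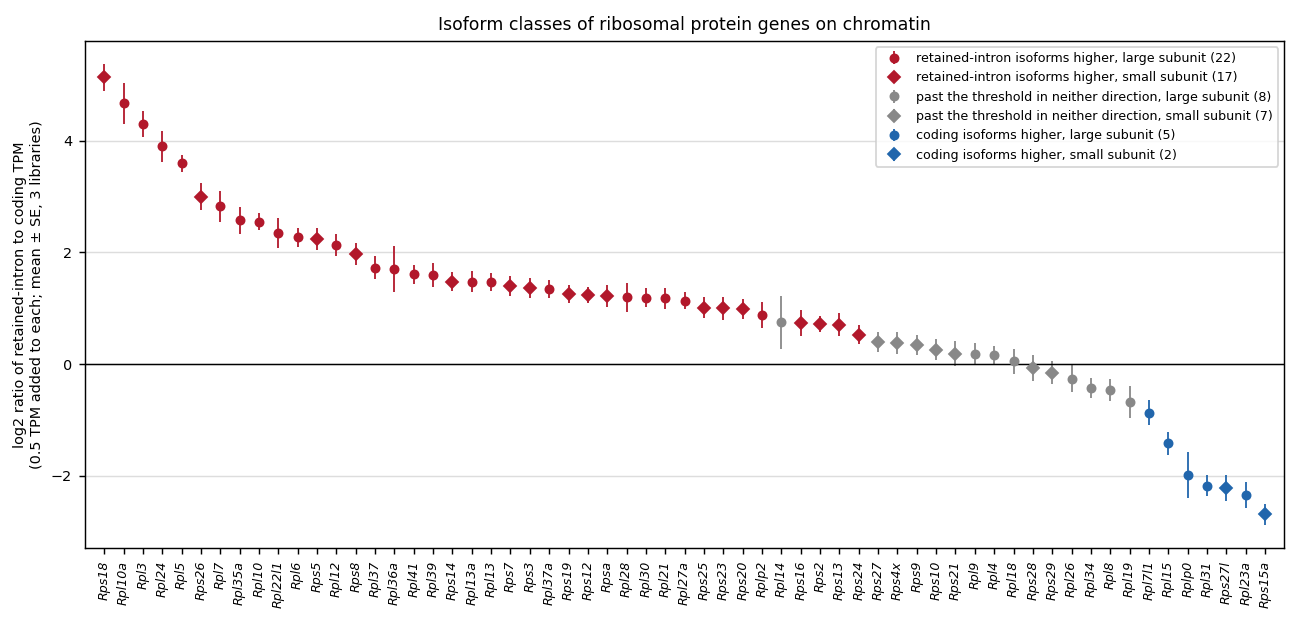
Log2 ratio of retained-intron to coding TPM, with 0.5 TPM added to each, for 61 of the 64 ribosomal protein genes with both classes, ordered by the ratio; points are means of 3 libraries, bars are limma standard errors, circles the large and diamonds the small subunit. Red marks 39 genes with retained-intron transcripts higher, blue 7 with coding transcripts higher and grey 15 past the threshold in neither direction.

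At one end were genes whose retained-intron transcripts far exceeded the coding ones. Rps18 (mm10 chr17:33951999-33956001, minus strand), of the small subunit's head, had 10.66, 27.49 and 17.07 TPM in retained-intron transcripts and 0 TPM in coding ones in every library. Its log2 ratio of 5.14 ± 0.24 (SE; limma adjusted p = 1.08e-06) depends on the added 0.5 TPM, and 86.2% of its coding sequence is shared with other genes (below). Rpl10a had 14.83, 27.07 and 18.56 retained-intron TPM and 1.00, 0.15 and 0 coding TPM, a ratio of 4.67 ± 0.36. Rpl3, at the peptidyl transferase centre, had 15.73, 33.56 and 20.23 retained-intron TPM and 0.84, 0.97 and 0.26 coding TPM, a ratio of 4.3 ± 0.23. In each of these genes the lowest retained-intron value lay above the highest coding value. Rpl24 followed at 3.9 ± 0.28, then Rpl5 at 3.6 ± 0.15, with 31.71, 44.84 and 36.62 retained-intron TPM and 2.07, 3.78 and 2.28 coding TPM. Rps26 at 3.0 ± 0.24, Rpl7 at 2.83 ± 0.28, Rpl35a at 2.58 ± 0.24 and Rpl10 at 2.55 ± 0.15 came next, and the limma adjusted p of these 9 genes was at most 4.08e-05. The calls of Rpl7 and Rpl35a did not hold in the other quantification, where their ratios were -0.18 and -1.24.

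At the other end were 7 genes whose coding transcripts were higher. Rps15a had 0.71, 2.27 and 1.04 retained-intron TPM and 9.3, 13.4 and 9.77 coding TPM, a ratio of -2.69 ± 0.19 (SE; limma adjusted p = 7.31e-06). Rpl23a, at the tunnel exit, had a ratio of -2.34 ± 0.23, and Rpl31, also there, of -2.18 ± 0.19. Rplp0, the base of the stalk, had 4.32, 4.81 and 0.7 retained-intron TPM and 7.69, 17.34 and 12.28 coding TPM, a ratio of -1.98 ± 0.41. Rpl15 had a ratio of -1.42 ± 0.2 and Rpl7l1 of -0.87 ± 0.22; both turn to the other sign, 0.54 and 0.44, when TPM is averaged over the annotated transcripts of a class. That setting also ended the calls of Rps15a (-0.4, limma adjusted p = 0.0955), Rplp0 (-0.51, limma adjusted p = 0.299) and Rpl31 (-0.1, limma adjusted p = 0.617), and Rps27l fell under its filter, so that of the 7 genes Rpl23a alone was still called. Rps27l, at -2.22 ± 0.24, had no retained-intron TPM and at most 2.36 coding TPM, and its ratio was 0.74 in the other quantification. The coding class was higher in every library in each of these 7 genes.

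Members without an annotated retained-intron transcript could not enter that test, and several of them had a low coding share of TPM too. Of Rpl23, 11.3% of the TPM was coding and 88.7% was in processed transcripts, with coding TPM of 4.71, 12.1 and 9.83 in replicates 1, 2 and 3. Processed transcripts likewise held 86.4% of the TPM of Rpl35, 86.2% of Rpl11, 85.1% of Rps27a, 82.7% of Rpl7a, 79.3% of Rpl22 and 78.0% of Rps6, the substrate of S6 kinase. By counts they held 50.2% of Rpl22 and 54.9% of Rpl35, which had a mean of 19.1 counts. In Rpl23, Rpl11, Rps27a, Rpl7a and Rps6 the shares by counts were 78.2%, 81.8%, 87.4%, 76.4% and 72.4%. Rpl27, which also has processed transcripts, had 24.9% of its TPM in them and 75.1% in coding ones. Rpl36, Rpl29, Rpl32, Rpl38, Rplp1, Rpl17, Rps15 and Rps3a1 have no annotated transcript of the 3 other classes, so no share could be measured in them. These genes were chosen after their values were seen. Counting coding transcripts alone, 65 of 83 members reached 1 TPM in all libraries. The share of all coding genes that did so was not measured. The subunit difference, large minus small, was 0.18 ± 0.18 on coding transcripts alone.

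The shares of retained-intron calls were smaller in the other gene lists. Retained-intron transcripts were higher in 27 of 51 ribosome assembly factors tested (52.9%), 17 of 36 mitochondrial ribosomal proteins (47.2%), 19 of 41 translation factors (46.3%) and 8 of 17 genes that control ribosomal protein mRNAs (47.1%), against 35.5% of all genes. They were higher in 2 of 9 RNA polymerase I genes. Median log2 ratios were 0.65, 0.47, 0.29, 0.06 and -0.12 in that order, against 1.08 in members. Whether members differed from these lists was not tested.

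Members share much of their coding sequence with other genes. Of all 31-base words in the coding transcripts, the median member had 43.4% that also occur in transcripts of another gene, with a range of 0 to 94.1%, and 28 members had over 50%. The medians were 1.51% for mitochondrial ribosomal proteins and 1.78% for translation factors. The isoform ratio went with this share, with Pearson's r of 0.41 and Spearman's rho of 0.4 across 64 members that share libraries and annotation. Of 19 members with under 25% shared words, retained-intron transcripts were higher in 9 (47.4%) and coding ones in 5 (26.3%), with a median log2 ratio of 0.34. Of 45 members with more, they were higher in 31 (68.9%) and 2 (4.44%), with a median of 1.22. The excess of retained-intron calls over the 35.5% of all genes was thus smaller among members with little shared sequence; the part of sequence sharing in the result was not tested further, and the limit of 25% was chosen after the data were seen. In addition, 27 members overlap another annotated gene, 5 on the same strand and 23 on the opposite one. Whether counting used the strand is not stated in the labels or file headers, so reads of such pairs, among them Rps18 with Vps52, Rpl3 with Syngr1 and Rpl5 with Fam69a, may not be told apart.

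A second quantification of the same libraries, which gave estimated counts directly from the reads under column names that kallisto writes, put most genes higher, members among them. The kallisto-type level exceeded the RSEM-type level in 71 of the 80 detected members (88.8%), against 93.5% of detected coding genes, and by more than 2-fold in TPM in 22 (27.5%), against 29.5%. The median difference on the log2(TPM + 1) scale was 0.62 in these members, against 0.59 in detected coding genes, so a shift of this size was general. The order of genes was similar, with Pearson's r of 0.79 and Spearman's rho of 0.84 over the 80 detected members, both from the same reads. Rpl39 averaged 24.4 TPM in the kallisto-type table, against 3.36 TPM in the RSEM-type table, a ratio of 7.26. Rpl36 averaged 164 against 36.3 TPM, Rpl24 70.6 against 16.0, Rpl36a 12.7 against 2.78, Rps27l 8.35 against 1.87 and Rps7 55.1 against 16.6, in the same order of tables. With the kallisto-type levels, Rpl36 and not Rpl23 (88.5 TPM) was the highest of these. Across the 80 detected members, the difference had r of 0.06 and rho of 0.01 with the percent of shared words.

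**Figure D4:**
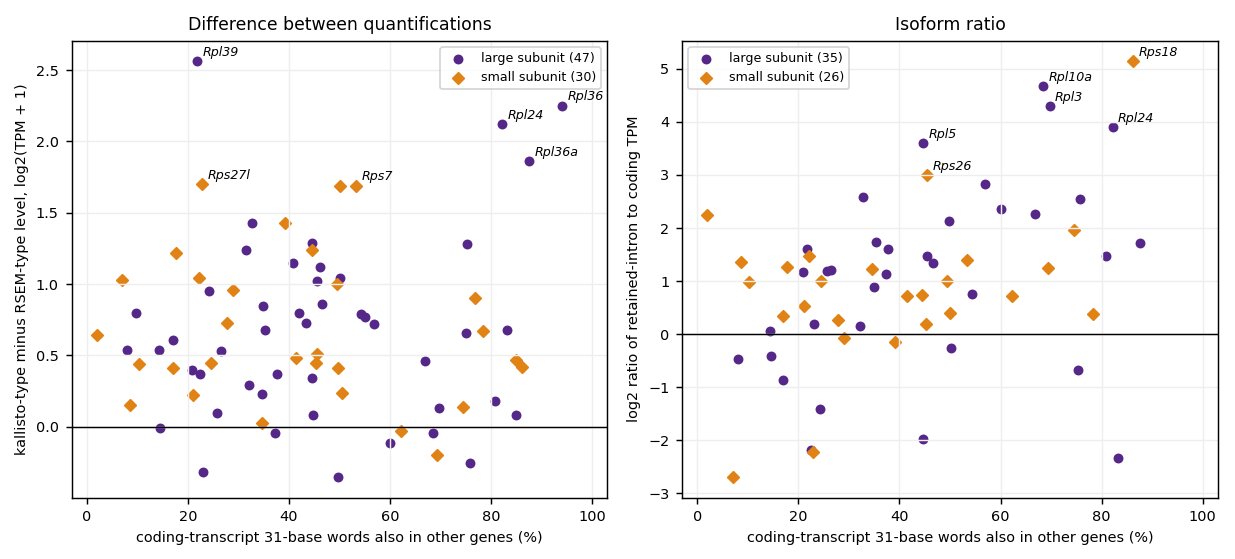
Left, the difference between the kallisto-type and the RSEM-type level in log2(TPM + 1) for 77 of the 80 detected members, and right, the log2 ratio of retained-intron to coding TPM for 61 of the 64 members tested, both against the percent of 31-base words of the coding transcripts that also occur in other genes. Points are genes, circles of the large and diamonds of the small subunit, and the 6 genes farthest from 0 are named; over all 80 and 64 members, rho was 0.01 for the left measure and 0.4 for the right one.

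Isoform calls partly carried over. In the kallisto-type table, retained-intron transcripts were higher in 36 of 64 members (56.2%), against 46.8% of all genes tested, and coding ones in 14 (21.9%), against 32.4%. In the large subunit, retained-intron transcripts were higher in 17 of 36 (47.2%), close to the share of all genes, and in the small subunit in 19 of 28 (67.9%). Of the 40 members with retained-intron transcripts higher in the RSEM-type table, 31 were called the same way in the kallisto-type table, 7 passed in neither direction and 2 were called the opposite way, Rpl35a and Rpl39. Of the 7 with coding transcripts higher, 6 were called the same way and 1, Rps27l, the opposite way. The ratios of the 2 tables had Pearson's r of 0.74 and Spearman's rho of 0.71 over 64 members. Rps18, Rpl10a, Rpl3 and Rpl24 stood at 5.48, 4.33, 3.25 and 7.01 in the kallisto-type table.

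Many members are hosts of snoRNAs, which guide the modification of rRNA. In the annotation, 30 members hold 58 snoRNA genes inside them, 39 in 20 large-subunit and 19 in 10 small-subunit genes. The highest by counts was Snord15b, in Rps3 (mm10 chr7:99477896-99483738, minus strand), with 5256, 2429 and 2444 counts in replicates 1, 2 and 3, against 366, 517 and 426 counts for the host gene itself. Snord15a, also in Rps3, had 967, 729 and 605 counts. Both snoRNAs exceeded their host in each library, and both were highest in replicate 1. The host had its fewest counts there. Scaled to the library total, the host had 27.5, 33.7 and 26.9 CPM and was lowest in replicate 3. In Rpsa, the snoRNA Gm26448 had 477, 451 and 359 counts. Among the next were Snora70 in Rpl10 with a mean of 26.4 counts, Snora7a in Rpl32 with 23.4, Gm22270 in Rpl5 with 11.7 and Snora21 in Rpl23 with 12, 11 and 13 counts in the 3 libraries. Of the 58, 39 had no count in any library, and the shortest with a count was 125 bases long, whereas 51 had a count in the kallisto-type table. The order given here is thus that of the RSEM-type table alone. In the kallisto-type table Snord21 in Rpl5, 94 bases long and without a count in the other, had 1137, 533 and 658 counts. The labelled size range was 250 to 400, and its part in the counts of these short RNAs was not tested. The median log2(TPM + 1) was 3.99 in the 30 hosts, against 3.63 in the 53 other members. This held in the large subunit, with 4.39 in hosts and 3.6 in the others, among which are the 3 undetected paralogs, and turned round in the small subunit, with 3.58 in hosts and 3.79 in the others. Retained-intron transcripts were higher in 21 of 25 hosts tested (84.0%), with a median log2 ratio of 1.22. They were higher in 19 of 39 other members (48.7%), with a median of 0.53. Over all genes tested the share was 35.5% and the median 0.08. No test of these differences was made.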

How the data were processed

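Chromatin-fraction total RNA of 3 libraries was quantified by the authors on mm10 with GENCODE annotation M21, per the text files deposited with each library; the labels and headers name neither programs and versions nor the strand setting (not given in the sources used). Per the file headers, one gene table and one transcript table held expected counts, TPM and the posterior mean and SD of each count, under names that RSEM writes. A second transcript table deposited by the authors held estimated counts and TPM, under names that kallisto writes. The authors' TPM covers every row of a table, also spike-ins. Reads in introns that no annotated transcript covers belong to no gene in such tables. Replicates were not pooled and there was 1 group, so no comparison between groups was made.

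Gene types, classes and coordinates came from M21, and start regions from RefSeq. A row for phiX, which names no gene, held 1.4%, 0.352% and 0.354% of expected counts and was left out. List levels were medians of log2(TPM + 1). The ratio of retained-intron to coding TPM, with 0.5 added to each, was fitted with limma 3.58.1 (intercept only, variance trend on the mean summed TPM) over all genes that have both classes and average at least 1 TPM in their sum, with Benjamini-Hochberg adjustment over all of them, after a test on simulated data. Spread was measured with edgeR 4.0.16 (TMM, filterByExpr) on the expected counts, rounded to integers. Other software was scipy 1.17.1, pandas 2.3.3, numpy 2.4.6 and python 3.11.15, and R 4.3.3.

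The members, the gene lists, the naming rule and the tests were chosen with earlier results of these data known. Named genes were the 6 highest and 6 lowest members of each subunit by mean TPM, the 5 with the largest SD at 20 counts or more, the 6 with the largest difference between quantifications, the 10 highest and lowest called isoform ratios, the paralogs with their parents, Rpl13a, Rps3, Rpl5, Rpl11 and Rps19, the 8 highest snoRNAs and the extremes of other lists. A few genes that the rule names are not reported here, but stay in every count and fit. Alternatives were other pseudocounts, filters, thresholds and class definitions, the kallisto-type table and leaving out each library.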

Additional observations from a re-analysis of the deposited data

Results flagged for a closer look

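Signal appeared in ribosomal protein genes that the symbol rule leaves out. Of 300 named ribosomal protein pseudogenes, 23 had more than 3 counts, the limit that a count of 0 allows, in all 3 libraries. The highest was Rpl36-ps2 (mm10 chr11:76601319-76601629, plus strand), with 164, 230 and 212 counts in replicates 1, 2 and 3 and a mean of 127 ± 44.8 TPM (SD, n = 3), above the 36.3 TPM of its parent Rpl36. Among the others that exceeded their parent in mean TPM were Rpl26-ps4 at 21.6, Rpl36a-ps4 at 9.74 and Rpl23a-ps2 at 9.57 TPM, against 9.18, 2.78 and 6.41 TPM for their parents. Of the 23, 20 lie inside another annotated gene, Rpl36-ps2 inside Abr on the opposite strand. The part of shared sequence and of host-gene transcription in these counts was not tested. None of the 6 symbols without a coding transcript had more than 3 counts in all libraries.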

How the results depend on the processing

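The subunit difference in median log2(TPM + 1), large minus small, of 0.25 became -0.02 on the log2(CPM + 1) scale and 0.01 with means over members in place of medians. It was 0.2 in the kallisto-type table and 0.16 to 0.36 with 1 library left out. The share of gene counts held by members was 0.137% in place of 0.101% without the 3 genes of highest count (Gm26917, Malat1 and Ahnak). Members with coding transcripts higher numbered 7, and 14 in the kallisto-type table; members with retained-intron transcripts higher numbered 40, and 36 there, while the share over all genes was 46.8% in place of 35.5%. Among the 19 members with under 25% of coding words shared, an alternative chosen after seeing the data, 9 had retained-intron transcripts higher, and the smaller number tested is part of that construction. Without 1 library these counts were 37 to 40 and 7 to 8. Other pseudocounts and filters, and the class joined with nonsense-mediated decay, left them at 36 to 40 and 6 to 8. The share of retained-intron calls over all genes moved more with the filter. It was 25.7% without a filter on low values, against 62.5% of members. At a mean summed TPM of at least 5 it was 42.8%, against 61% of the 59 members tested. Coding calls were 25.3% and 32% of all genes in these 2 settings, against 10.9% and 10.2% of members. With TPM averaged per annotated transcript the counts were 39 and 5, but 30 of the 40 and 1 of the 7 genes were the same. In that setting the counts were 62.9% and 8.06% of the 62 members tested, against 47.8% and 24.2% of all genes. Of 17 named isoform ratios under 168 alternative values, 159 kept their direction and their side of the threshold and 4 kept the direction alone. The 5 that turned round were Rpl35a at -1.24, Rpl7 at -0.18 and Rps27l at 0.74 in the kallisto-type table and Rpl15 at 0.54 and Rpl7l1 at 0.44 with TPM averaged per annotated transcript; the cause was not tested. Of 30 named levels, 19 moved beyond 1 SD in the kallisto-type table. Detection stayed at 64 to 80 members at thresholds of 0.5 to 5 TPM. No paired analysis was possible because the series has 1 group, so replicate numbers pair no samples; the isoform ratio itself is taken within each library. Depth limits members under 20 counts, where isoform classes rest on few reads.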
